A study of Homo sapiens with 40 samples.

Results

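The genes described here fold, modify and clear proteins in the endoplasmic reticulum (ER) or carry its stress signal. They are 39 of the 60279 genes in the count tables, chosen by name from knowledge of the pathway and found in all 3 tables by their Ensembl identifiers. Earlier results of these data were known when these genes and the further lists used below were chosen. Single cells of T47D, an oestrogen receptor-positive human breast cancer cell line, were taken at passage 10 without treatment, sorted as EpCAM+ CD49f+ cells into wells and amplified with 1 of 3 full-length SMART-seq type protocols. These were G&T, a non-commercial method that separates mRNA from genomic DNA (13 cells), the Takara SMART-seq HT kit (13 cells) and the NEB NEBNext single cell kit (14 cells). No separate cultures or runs are named within a protocol, which therefore counts as 1 sample without replicate. Its effect cannot be told apart from that of the plate or of the sequencing run, since each protocol had its own run. NEB also had more PCR cycles than both others and its own library preparation kit. No test was made between protocols, and every mean ± SD or range describes the cells of 1 protocol.

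Cells with low quality were left out (wells C2 and F1 of G&T, C2 and F1 of Takara, and B2, F1 and F2 of NEB), which left 11 cells per protocol. The kept cells held 658154 to 1166633 reads on genes in G&T, 818512 to 1287911 in Takara and 624772 to 963816 in NEB. They held 9541 to 12794 detected genes in G&T, 10624 to 11855 in Takara and 4416 to 6719 in NEB. All 7 epithelial markers checked, among them EPCAM, KRT8, GATA3 and ESR1, had reads in every protocol. The immune markers CD3E and CD68 had none in any protocol, and PTPRC had 2 reads in G&T. The endothelial markers PECAM1 and VWF had 12 and 16 reads in G&T and none elsewhere, and the fibroblast gene COL1A1 had 86 to 148 reads per protocol.

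As background, secretory and membrane proteins enter the ER through the SEC61 channel and are folded there by the chaperones BiP (HSPA5) and GRP94 (HSP90B1), by lectin chaperones and by disulfide isomerases. Proteins that fail to fold are moved back to the cytosol for degradation. When unfolded protein builds up, the sensors ATF6, IRE1 (ERN1) and PERK (EIF2AK3) start the unfolded protein response. ATF6 and IRE1 raise chaperone genes, in part through the ER stress response element (ERSE) in their promoters, and PERK raises translation of the transcription factor ATF4, whose targets carry an amino acid response element.

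The promoter sequences are shown because such elements are a known link of chaperone genes to this response, though only part of the listed chaperones held one. RefSeq windows of GRCh38.p14, from 250 bases before to 50 bases after each annotated start, were searched on both strands. They were found for 37 of the 39 genes, while PDIA3 and DERL1 had no window and were not searched. The ERSE, read as CCAAT, 9 free bases and CCACG, was found in 27 of all 35116 windows (0.0769%) and in the windows of 6 of the genes, namely HSPA5, HSP90B1, CALR, CANX, PDIA6 and CRELD2. Sites are shown 5′ to 3′ on the strand of the gene with 5 bases on each side and the motif in capitals, which begins with CGTGG where the site lies on the opposite strand.
HSPA5, chr9:125241386-125241414, minus strand: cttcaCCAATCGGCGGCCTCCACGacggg
HSP90B1, chr12:103930211-103930239, plus strand: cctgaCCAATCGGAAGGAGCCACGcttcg
HSP90B1, chr12:103930316-103930344, plus strand: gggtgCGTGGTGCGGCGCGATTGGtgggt
CALR, chr19:12938379-12938407, plus strand: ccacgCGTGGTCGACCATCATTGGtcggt
CANX, chr5:179698773-179698801, plus strand: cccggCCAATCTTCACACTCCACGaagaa
PDIA6, chr2:10812848-10812876, minus strand: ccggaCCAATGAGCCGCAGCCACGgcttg
CRELD2, chr22:49918549-49918577, plus strand: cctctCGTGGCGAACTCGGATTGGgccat

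A related element, ERSE-II (ATTGG, 1 free base and CCACG), was added to the search after the first results were seen. It does not overlap the ERSE sites above. It was found in 19 of the 35116 windows (0.0541%) and in those of HYOU1, SDF2L1 and HERPUD1. HYOU1 held 2 sites, which are shown in 1 run of 127 bases, and SDF2L1 and HERPUD1 held 1 site each. The windows of P4HB, PDIA4, DNAJB9, DNAJB11, DNAJC3 and MANF held neither element.
HYOU1, chr11:119057269-119057395, minus strand: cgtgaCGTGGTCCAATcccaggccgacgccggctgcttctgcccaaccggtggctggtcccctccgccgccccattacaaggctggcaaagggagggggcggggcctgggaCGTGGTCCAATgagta
SDF2L1, chr22:21642109-21642129, plus strand: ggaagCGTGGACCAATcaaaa
HERPUD1, chr16:56932020-56932040, plus strand: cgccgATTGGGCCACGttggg

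The core of the amino acid response element, TGATGNAAN, is a shorter motif and was found in 1268 windows (3.61%). By gene, 4.45% of 27305 genes held it. Among the 37 genes it was found in ASNS and CHAC1, both known targets of ATF4, and in HERPUD1. The windows of the other stress effectors listed downstream, TRIB3, DDIT3 and PPP1R15A, held no match.
ASNS, chr7:97872463-97872481, minus strand: aggcaTGATGAAACttccc
CHAC1, chr15:40953256-40953274, plus strand: ctgccGTTGCATCActcct
HERPUD1, chr16:56931960-56931978, plus strand: ggcggGTTGCATCAgcccg

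HSPA5 and CRELD2, which both hold an ERSE, differed in their pattern over the protocols. All cells were untreated cells of the same line, so a difference between library protocols cannot test what the motif does. Pooled over the 11 kept cells of a protocol and given as CPM (reads scaled to a total of 1000000 on genes), HSPA5 was at 680.1 CPM in G&T, 1153 CPM in Takara and 1418 CPM in NEB. CRELD2, which holds the same motif, was at 56.6 CPM in G&T, 78.9 CPM in Takara and 0.627 CPM in NEB. A motif match is a description of the letters and does not show that a factor bound there.

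Every one of the 39 genes was detected in the kept G&T cells and in the kept Takara cells, and 37 were in NEB. ERN1 and CHAC1 had no read in any kept NEB cell, and a count of 0 in the 7973692 pooled reads of NEB allows up to 3 reads, or 0.376 CPM. This limit covers the counting of reads alone, while the NEB reads of some low genes lay in single cells. Ratios given below as at least a value rest on this limit and hold no spread between cells. A G&T cell held reads on 37.1 ± 1.76 of the 39 genes (SD, n = 11 cells; range 34 to 39), a Takara cell on 36.8 ± 1.60 (34 to 39) and an NEB cell on 26.9 ± 3.53 (19 to 32). The NEB range lay below both other ranges. Thinning every cell to 624772 reads on genes, the depth of the shallowest, gave expected numbers of 36.9, 36.6 and 26.9, so the gap in detection remained at equal depth. Reads in all 11 cells were found for 31 of the 36 listed genes with at least 100 pooled G&T reads, for 31 of 35 with Takara and for 11 of 29 with NEB. Over all genes with such reads the shares were 66.6%, 76.5% and 22.4%, so NEB was lowest there too.

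The summed level of the 39 genes differed less than their detection. In a G&T cell it was 7532 ± 786 CPM (SD, n = 11 cells; range 5743 to 8639), in a Takara cell 8548 ± 570.3 CPM (7611 to 9551) and in an NEB cell 9395 ± 1504 CPM (7207 to 12139.9). The 3 ranges overlapped. In NEB the sum was thus carried by fewer genes in each cell, as the heatmap of log2(CPM + 1) shows.

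**Figure D1:**
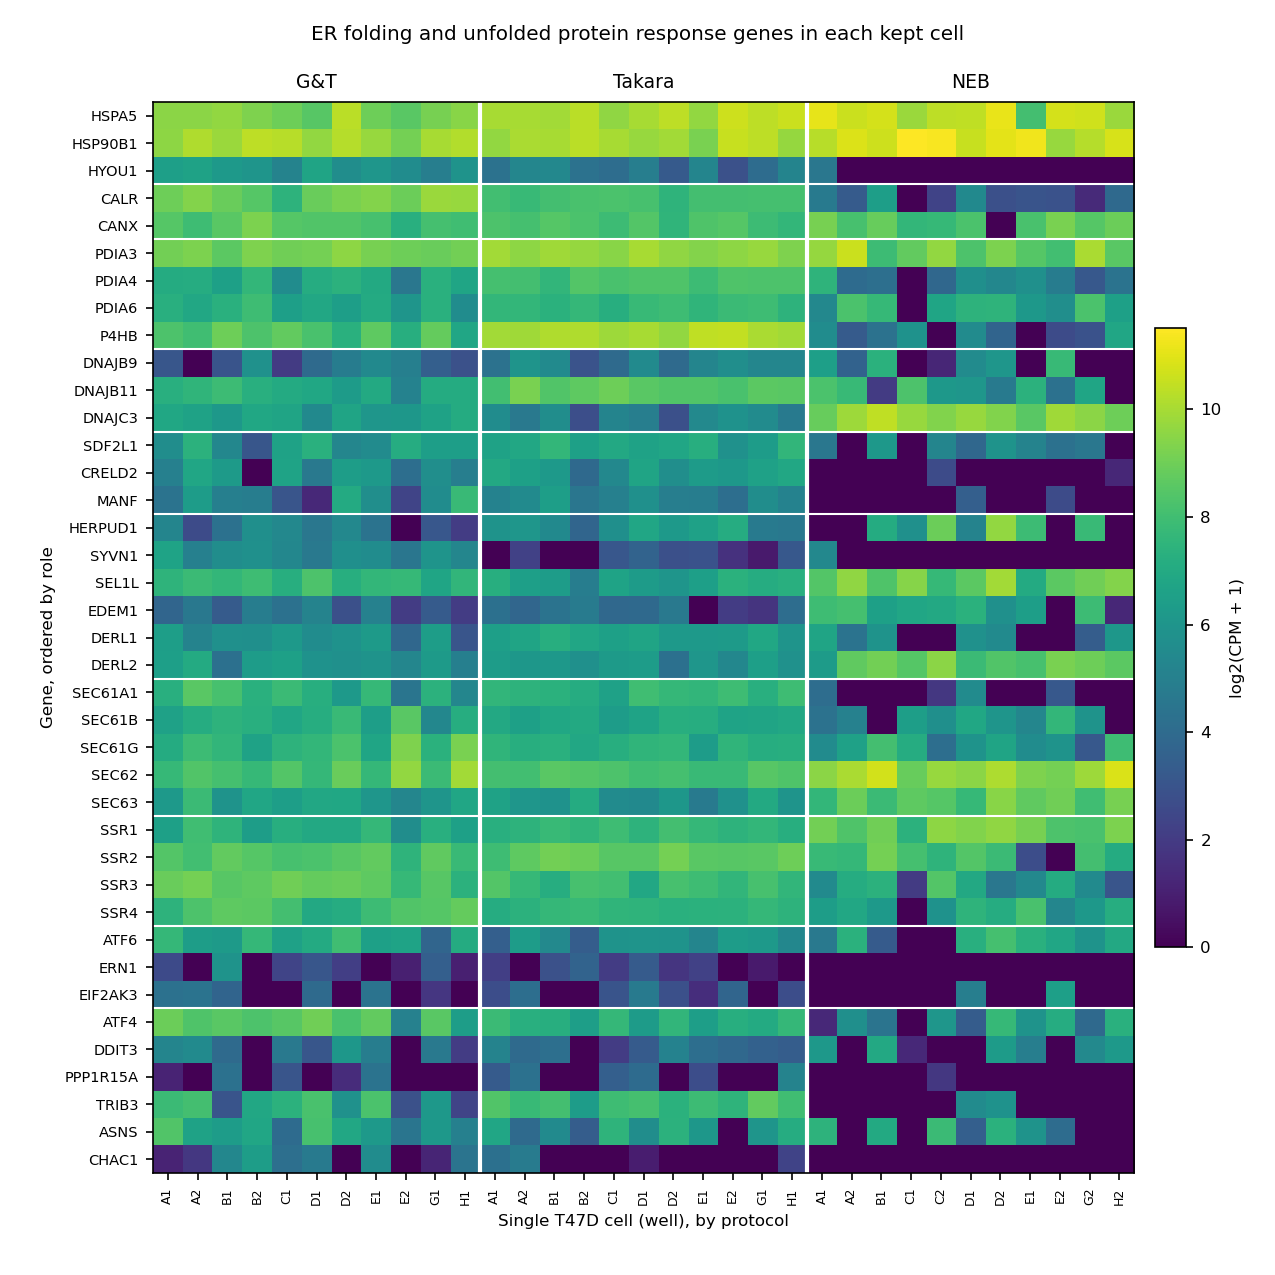
Level of the 39 genes (rows, ordered by role, white lines between roles) in each of the 33 kept cells (columns, by protocol and well) as log2(CPM + 1), with dark cells at 0. In NEB, 11 genes have reads in every cell, against 31 in G&T and 31 in Takara. HYOU1, CRELD2, MANF, SYVN1, SEC61A1, TRIB3, EIF2AK3 and PPP1R15A are at 0 in most NEB cells, and ERN1 and CHAC1 in all.

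Pooled levels were compared for each pair of protocols as log2 ratios with 1 CPM added, and a gene was counted where it differed at least 2-fold and had at least 100 pooled reads in 1 of both protocols. With G&T over Takara, 37 genes had these reads, 7 of them were at least 2-fold higher in G&T and 4 in Takara, where 18.4% and 20.8% of the 9196 genes with such reads were. With G&T over NEB, 36 genes had the reads, 16 were at least 2-fold higher in G&T (39.9% of 8873 genes were) and 10 in NEB (22.5%). With Takara over NEB, 35 genes had the reads, 14 were at least 2-fold higher in Takara (42.2% of 9049 genes) and 9 in NEB (24.1%). As shares, 18.9%, 44.4% and 40% of the genes with reads were higher in the protocol named first and 10.8%, 27.8% and 25.7% in the other, beside the shares of all genes just given. The genes that lacked the reads were ERN1 and EIF2AK3 in every pair, with PPP1R15A for G&T over NEB, and SYVN1 and CHAC1 for Takara over NEB. Besides genes described with their cells further on, single cells decided the side of 2-fold for 4 genes. For G&T over Takara, DNAJB9 (-0.88) was at -1.12 without the G&T cell B2 and -1.06 without E1, and PPP1R15A (-0.85) at -1.36 without B1 and -1.23 without E1. For Takara over NEB, SEC61B (0.84) was at 1.19 without the NEB cell E2 and 1.01 without D1, and SSR2 (0.91) at 1.13 without B1 and 1.03 without D1.

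In the same order of pairs, the 39 genes had median log2 ratios of 0.14, 0.61 and 0.63, beside medians of -0.13, 0.42 and 0.49 over all genes with the reads. The single genes ran from -1.81 to 3.15, from -3.01 to 5.15 and from -4.45 to 5.62. The 3 comparisons share their protocols and are not independent of each other. The single genes spread far wider than these medians, and they did so within nearly every role.

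**Figure D2:**
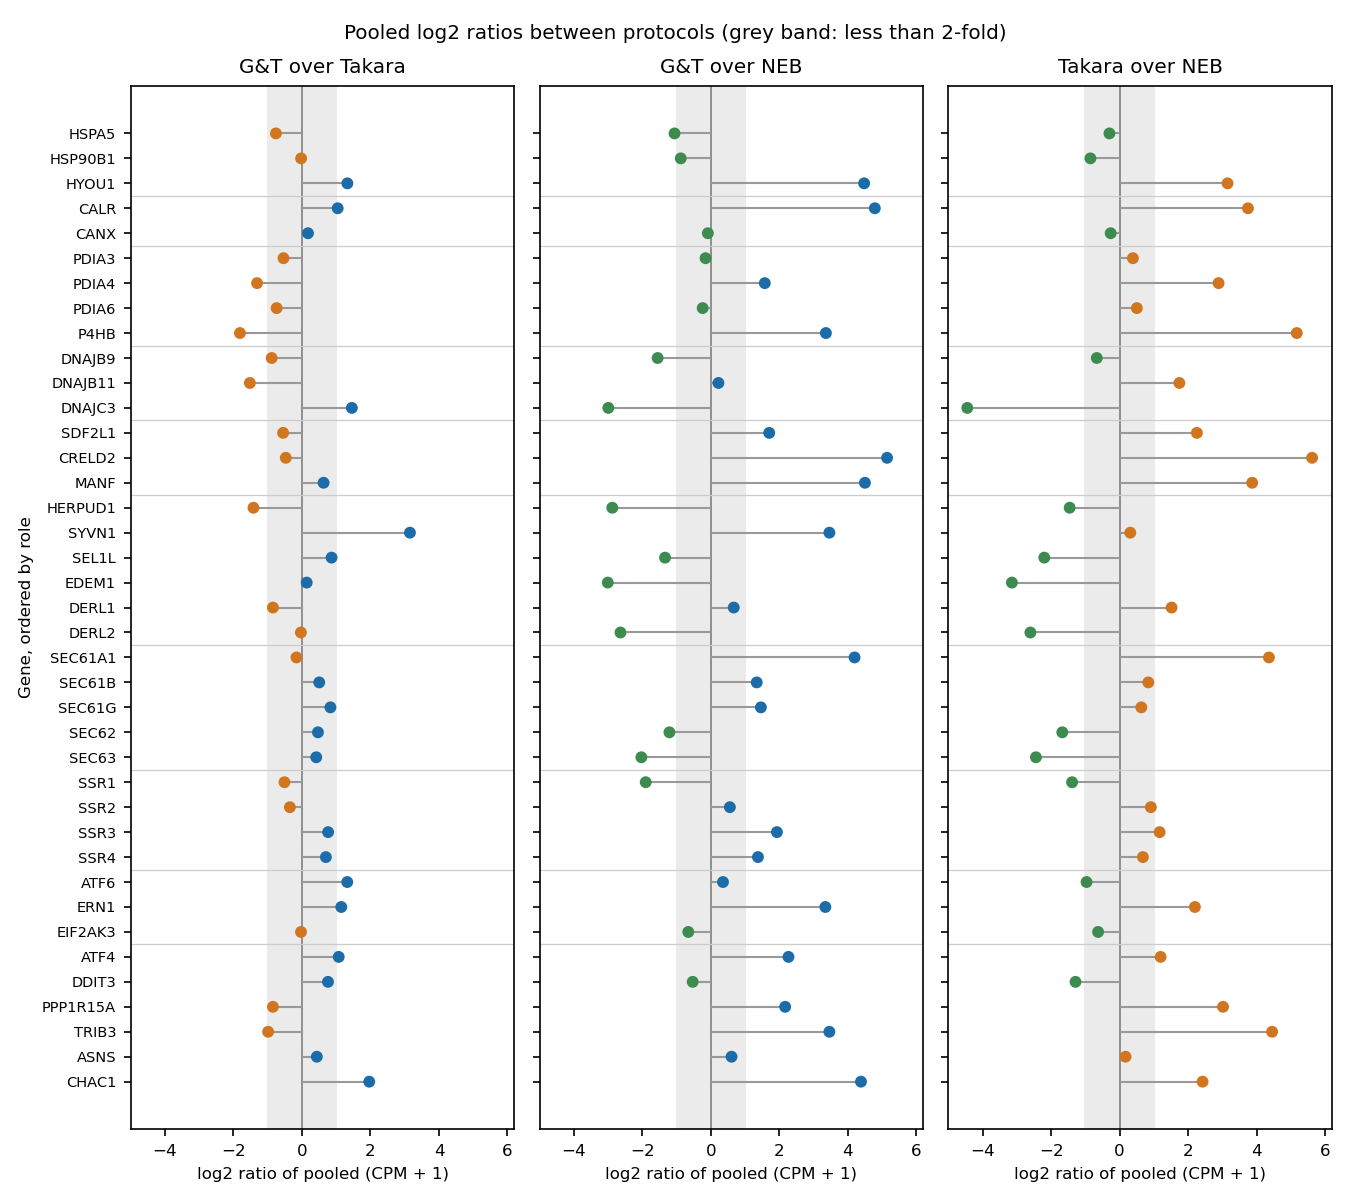
Pooled log2 ratio of CPM + 1 for the 39 genes (rows, by role) in the 3 pairs of protocols, coloured by the protocol with the higher level (blue G&T, orange Takara, green NEB), with the grey band marking less than 2-fold. Ratios between G&T and Takara stay between -1.81 and 3.15, while both comparisons with NEB reach beyond 5 on 1 side and to -3.01 or -4.45 on the other.

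Among the HSP70 and HSP90 class chaperones, HSP90B1, the ER form of HSP90, had the highest level per kilobase of transcript of its role, at a mean over protocols of 464 CPM per kb, and HSPA5 followed at 276 CPM per kb. HSP90B1 (chromosome 12, 103930107 to 103953931) ranged from 554 to 1311 CPM over the G&T cells with a median of 1044 CPM. In Takara cells it ranged from 594 to 1484 CPM (median 1023 CPM) and in NEB cells from 859 to 2931 CPM (median 1797 CPM). Pooled, G&T was at 1005 CPM with a 95% Poisson interval of 985 to 1025. Takara was at 1022 CPM (1004 to 1040.3) and NEB at 1848 CPM (1818 to 1878). The NEB level was 1.84-fold that of G&T, and the cells of the protocols overlapped. These intervals cover the counting of reads alone, since the reads carry no molecular identifiers, and no spread between cells or runs.

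HYOU1, a large HSP70-like chaperone and exchange factor of BiP, departed from both. It had reads in all 11 G&T cells (29.2 to 105 CPM, median 62.3 CPM) and all 11 Takara cells (6.30 to 40.2 CPM, median 19.3 CPM). In NEB it had reads in 1 cell only, A1, at 22.5 CPM, and its 15 reads there were all the NEB reads of the gene. Pooled, it was 33.6-fold higher in G&T than in NEB and 13.1-fold higher in Takara than in NEB. Without A1 the gene had no NEB read. HYOU1 and HSPA5, both ER proteins of the HSP70 class, thus differed between G&T and NEB in opposite directions. The ratio of HSPA5 was near the limit, at 2.09-fold with a log2 ratio of -1.06, and became -0.99 without the G&T cell E2 or the NEB cell A1 and -0.98 without the NEB cell D2.

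The lectin chaperones, which bind the sugar chains of young glycoproteins, differed in 1 of 2 members. CALR (calreticulin, the soluble form) had the highest mean over protocols per kilobase of the role, 147 CPM per kb, although it lay below CANX in NEB (10.0 against 68.8). Its level per cell was 171 to 883 CPM in G&T (median 496 CPM), 178 to 309 CPM in Takara (median 273 CPM) and 0 to 85.5 CPM in NEB (median 7 CPM). Every NEB cell lay below every cell of the other protocols. G&T was 2.06-fold above Takara, pooled, but the log2 ratio of 1.04 became 0.96 without the G&T cell G1 and 0.95 without H1. Pooled, CALR was 29.0-fold higher in G&T and 14.1-fold higher in Takara than in NEB. CANX (calnexin, the membrane-bound form) was at 319 CPM in G&T, 282 CPM in Takara and 338 CPM in NEB, pooled. It was nevertheless at 0 in the NEB cell D2, while the other NEB cells held 196 to 581 CPM.

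The protein disulfide isomerases form and exchange disulfide bonds. P4HB, the archetypal member, had the highest mean over protocols per kilobase (191 CPM per kb) and the largest ratio of Takara over NEB after CRELD2. Takara carried this mean (437 CPM per kb), and P4HB lay below PDIA3 in G&T (124 against 150) and in NEB (11.7 against 167). Its level was 814 to 1408 CPM in the Takara cells (median 1045 CPM), 112 to 506 CPM in the G&T cells (median 316 CPM) and 0 to 111 CPM in the NEB cells (median 12.2 CPM). No cell of 1 protocol lay within the range of another. Pooled, P4HB was at 1066 CPM (1047 to 1085) with Takara, 303 CPM (292 to 314) with G&T and 28.6 CPM (25 to 32.6) with NEB, which made Takara 3.52-fold higher than G&T and 37.3-fold higher than NEB. PDIA4 had the same order, with 292 CPM in Takara, 117 CPM in G&T and 38.6 CPM in NEB. PDIA3, the isomerase that works with the lectin chaperones, and PDIA6 stayed within 2-fold in all 3 pairs, at 552 to 803 CPM and 119 to 199 CPM pooled.

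The J-domain co-chaperones, which drive the ATPase cycle of BiP, held the largest excess of NEB over Takara. DNAJC3 (P58IPK, chromosome 13, 95677139 to 95794988) ranged from 374 to 1345 CPM over the NEB cells with a median of 725 CPM. In the G&T cells it ranged from 43.5 to 135 CPM (median 99.7 CPM) and in the Takara cells from 5.80 to 57.7 CPM (median 35.7 CPM). Every NEB cell lay above every other cell. Pooled, NEB was at 755 CPM, 8.03-fold above G&T and 22.5-fold above Takara, and G&T was 2.80-fold above Takara.

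DNAJB11 had the highest mean over protocols per kilobase of this role (129 CPM per kb), though in NEB it lay below DNAJC3 (70.0 against 135). It was instead highest in Takara. The Takara cells held 260.1 to 586 CPM, above every G&T cell (33.5 to 241 CPM), while the NEB cells ran from 0 to 312 CPM. DNAJB9 had the largest ratio of the highest cell to the median cell among genes with 100 or more reads. In NEB it went from 0 to 216 CPM around a median of 11.3 CPM, with reads in 7 of 11 cells. In G&T it went from 0 to 56.2 CPM and in Takara from 6.77 to 61.7 CPM.

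The 3 small luminal stress proteins, SDF2L1, CRELD2 and MANF, were at least 2-fold lower in NEB than in either other protocol. SDF2L1, a partner of ER J-domain proteins and the highest of the role per kilobase (91.7 CPM per kb), was at 82.0 CPM in G&T, 121 CPM in Takara and 24.5 CPM in NEB, pooled. CRELD2, an ER stress-inducible protein with EGF-like domains, was found in 10 G&T cells (0 to 111 CPM, median 50.7 CPM), 11 Takara cells (14.5 to 121 CPM, median 79.3 CPM) and 2 NEB cells (5.28 and 1.42 CPM). Its 5 NEB reads put the pooled level 90.3-fold below G&T (counting interval 38.5 to 279) and 126-fold below Takara (53.8 to 389), the largest ratios among the genes with NEB reads. Of these 5 reads 4 were in the cell C2, and the 1 read left without it gave ratios of 409 (interval 73 to 16172) and 569.7 (102 to 22528).

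MANF, a secreted protein released under ER stress, had 14 reads in 2 NEB cells (D1 and E2). In Takara it ranged from 16.8 to 87.7 CPM. In G&T it ranged from 1.5 to 222 CPM around a median of 30.8 CPM, and the cell H1 alone held 36.7% of the G&T reads. The coefficient of variation over the G&T cells was 118% for MANF, against 49.9% over the Takara cells. MANF was 35-fold higher in G&T than in NEB, pooled, and 22.4-fold higher in Takara than in NEB. Without the NEB cell D1 these log2 ratios, 4.50 and 3.87, were 5.31 and 4.68.

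Genes of ER-associated degradation, which extract misfolded proteins, differed in direction. Of the 6 listed, 4 were at least 2-fold higher in NEB than in either other protocol, where 15% of the 9587 genes with at least 100 reads in 1 of the 3 protocols were. Of 7 further degradation genes, 1 (EDEM3) was, and 4 (EDEM2, VCP, NPLOC4 and OS9) were at least 2-fold lower in NEB than in both others, so the count does not extend to degradation genes at large. EDEM1, a mannosidase-like protein that marks misfolded glycoproteins, ranged over the NEB cells from 0 to 273 CPM (median 110.2 CPM), and over G&T cells from 3.11 to 34.5 CPM (median 12.4 CPM) and Takara cells from 0 to 27.1 CPM (median 14.2 CPM). Pooled, NEB was 8.53-fold above G&T and 9.44-fold above Takara. DERL2, a Derlin of the retrotranslocation site, had the highest mean over protocols per kilobase of the role (42.6 CPM per kb). NEB carried this mean (96.7 CPM per kb), and DERL2 lay below SEL1L in G&T (15.3 against 24.1) and below DERL1 in Takara (15.7 against 29.7). DERL2 was at 78.0 to 728 CPM in NEB cells, 17.9 to 132 CPM in G&T cells and 18.3 to 90.2 CPM in Takara cells. SEL1L, the adaptor of the ubiquitin ligase HRD1, was at 484 CPM in NEB, 191 CPM in G&T and 104 CPM in Takara, pooled.

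SYVN1, which encodes HRD1 itself, did not follow its adaptor. It was at 22 to 100.4 CPM in the G&T cells (median 48.3 CPM) and at 0 to 11.5 CPM in the Takara cells (median 3.74 CPM), with no overlap, and was pooled 10.7-fold higher in G&T, the largest ratio between these protocols. In NEB all 27 reads of SYVN1 came from the cell A1, the same cell that held every NEB read of HYOU1. Without A1 the log2 ratio of Takara over NEB for SYVN1 was 2.44 instead of 0.31.

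HERPUD1, an ER membrane protein strongly induced by ER stress, was uneven over the NEB cells. It was at 0 in 4 cells and reached 802 CPM in D2 and 485 CPM in C2, around a median of 53.6 CPM. Takara cells ranged from 12.6 to 138 CPM (median 59.9 CPM) and G&T cells from 0 to 51.7 CPM (median 20.1 CPM). The medians of NEB and Takara were close, while the pooled level of NEB was 2.78-fold that of Takara. Without the NEB cell D2 the log2 ratio of Takara over NEB was -0.88 instead of -1.46, under 2-fold. DERL1 was the only gene of the role besides SYVN1 with its lowest pooled level in NEB (32.7 CPM, against 52.6 CPM in G&T and 95.5 CPM in Takara).

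The translocon genes showed the split inside a single complex. SEC61A1, the channel subunit, was at 165 CPM in G&T, 184 CPM in Takara and 8.03 CPM in NEB, with reads in 11, 11 and 4 cells, and 70.3% of the NEB reads came from the cell D1, without which the log2 ratios over NEB went from 4.20 to 5.48 for G&T and from 4.36 to 5.64 for Takara. Its small partners SEC61B and SEC61G were at 160.3 and 271 CPM in G&T, 113 and 152 CPM in Takara, and 62.7 and 97.6 CPM in NEB. SEC62 and SEC63, which aid the entry of finished proteins, were highest in NEB. SEC62 was at 456 to 1849.6 CPM in NEB cells (median 848 CPM), 201 to 978 CPM in G&T cells (median 276 CPM) and 221 to 384 CPM in Takara cells (median 274 CPM). SEC63 was at 392 CPM in NEB, 95.4 CPM in G&T and 71.2 CPM in Takara, pooled.

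Per kilobase, SEC61G was the highest of the translocon genes (408 CPM per kb as a mean over protocols), followed by SEC61B (198 CPM per kb), while SEC61A1 was at 33.3 CPM per kb although the 3 proteins form 1 channel. In the translocon-associated protein complex, SSR4 had the highest mean over protocols (318 CPM per kb). It lay below SSR2 in Takara (293 against 374) and in NEB (183 against 199). SSR4 ranged from 124 to 438 CPM in G&T cells, 138 to 213 CPM in Takara cells and 0 to 293 CPM in NEB cells. SSR1 was highest in NEB, at 508 CPM against 135 CPM in G&T and 193 CPM in Takara, and SSR2, SSR3 and SSR4 were lowest there, at 220.2, 102 and 111 CPM.

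The 3 stress sensors were low per kilobase, at means over protocols of 12.5 CPM per kb for ATF6, 1.96 for EIF2AK3 and 0.538 for ERN1. ATF6, a membrane-bound transcription factor cut free under stress, was the most abundant of them and had reads in 11 G&T cells (12.7 to 255 CPM, median 100.4 CPM), 11 Takara cells (9.67 to 82.3 CPM, median 58.6 CPM) and 9 NEB cells (0 to 279 CPM, median 111 CPM). Pooled, G&T was 2.53-fold higher than Takara. NEB was 1.97-fold higher than Takara, and leaving out any 1 of the Takara cells A2, E2 and G1 or the NEB cells A1, B1, C1, C2 and G2 took the log2 ratio of -0.97 past 2-fold, to -1.02 at the least and -1.11 at the most. ERN1, the kinase and RNase IRE1, was found in 8 G&T cells and 8 Takara cells. Its 87 G&T reads came to 69.0% from the cell B1 (59.7 CPM), and the median cell was at 3.43 CPM. Takara cells ranged from 0 to 11.6 CPM with a median of 3.11 CPM. Without B1 the log2 ratio of G&T over Takara was -0.13 instead of 1.15. Against the limit of 3 reads in NEB, ERN1 was at least 24.3-fold higher in G&T (at least 8.45-fold without B1) and at least 9.53-fold higher in Takara.

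EIF2AK3, the kinase PERK, had reads in 6 G&T cells (0 to 20.1 CPM, median 2.54 CPM), 8 Takara cells (0 to 25.7 CPM, median 5.65 CPM) and 2 NEB cells (29.1 CPM in D1 and 89.6 CPM in E2). Pooled levels were 7.26, 7.43 and 12.0 CPM, with counting intervals of 5.65 to 9.19, 5.95 to 9.16 and 9.75 to 14.7. Without the NEB cell E2, the log2 ratio of G&T over NEB changed from -0.66 to 0.76. With 1 cell deciding these values, neither ERN1 between G&T and Takara nor EIF2AK3 between any protocols could be ordered, and neither gene entered the counts past 2-fold.

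Among the stress effectors, ATF4, the transcription factor downstream of PERK, was the highest per kilobase (125 CPM per kb). Its pooled G&T level of 317 CPM (306 to 329) stood above that of Takara, 150.3 CPM (143 to 157), and that of NEB, 65.1 CPM (59.6 to 70.9). Over cells it ranged from 32.4 to 514 CPM in G&T (median 372 CPM), from 78.1 to 228 CPM in Takara (median 148 CPM) and from 0 to 207 CPM in NEB (median 52.9 CPM). TRIB3, a pseudokinase induced by ATF4, was instead highest in Takara. It was at 80.2 to 432 CPM in Takara cells (median 245 CPM), 4.15 to 300.3 CPM in G&T cells (median 119 CPM) and present in 2 NEB cells (46.7 CPM in D1 and 57.7 CPM in D2). The ratio of G&T over Takara stood at the limit, with a log2 value of -0.99 that passed 2-fold without any 1 of 9 cells (5 of G&T and 4 of Takara). Pooled, TRIB3 was 23.9-fold higher in Takara and 12.0-fold higher in G&T than in NEB, log2 ratios of 4.45 and 3.46 that became 5.28 and 4.29 without D1 and 5.12 and 4.14 without D2.

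CHAC1, a glutathione-degrading enzyme induced by ATF4, had reads in 9 G&T cells (0 to 83.6 CPM, median 17.4 CPM) and 4 Takara cells (0 to 27.1 CPM, median 0 CPM). It was 4.57-fold higher in G&T than in Takara (a log2 ratio of 1.96, and 2.77 without the Takara cell A2), and against the limit of 3 reads in NEB it was at least 52.9-fold higher in G&T and at least 11.6-fold higher in Takara (at least 5.49-fold without A2). ASNS (asparagine synthetase) was at 105, 77.7 and 68.9 CPM in G&T, Takara and NEB, all within 2-fold (the log2 ratio of G&T over NEB, 0.61, became 1.01 without the NEB cell C2), but ranged widely between cells. It went from 15.3 to 335 CPM in G&T, 0 to 176 CPM in Takara and 0 to 231 CPM in NEB, where the median was 15.8 CPM. DDIT3 (CHOP) was the only effector highest in NEB, at 35.2 CPM against 24.1 and 13.8 CPM. Without the NEB cell B1, the log2 ratio of Takara over NEB for DDIT3 was -0.92 instead of -1.29. PPP1R15A (GADD34), which restarts translation after stress, had 44 G&T reads, 107 Takara reads and 2 NEB reads, a ratio of Takara over NEB of 36.4 with a counting interval of 9.84 to 305. Both NEB reads were in the cell C2, and without it Takara was at least 22-fold higher.

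Several of these genes share exon sequence with others in the annotation, and reads that STAR could assign to more than 1 gene were not counted. The share of exon bases that overlap another gene was 49.3% for ASNS, 39.6% for DDIT3, 25.2% for PDIA6 and 20.8% for SSR3, and below 15% for the other genes. The levels of these 4 genes are therefore uncertain. The mean share of such uncounted reads per cell was lowest with NEB (5.68%), higher with G&T (8.79%) and highest with Takara (10.6%). Ratios of these 4 genes between protocols are thus uncertain too, and the size of this effect was not tested.

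The plot of 8 genes by cell shows the main patterns without pooling. P4HB separates all 3 protocols, CALR separates NEB from the others, DNAJC3 stands apart in NEB, and HERPUD1 in NEB is spread from 0 to its highest value.

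**Figure D3:**
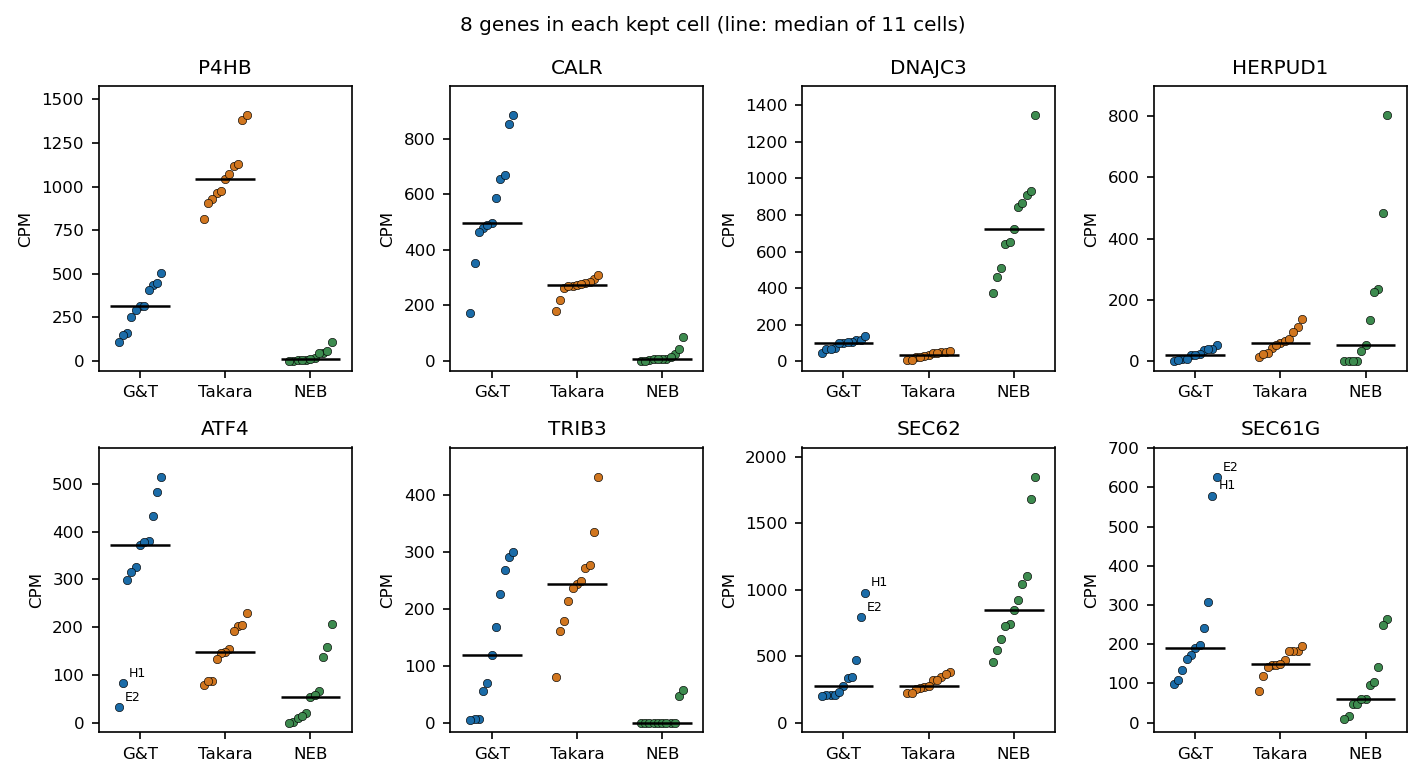
CPM of 8 genes in each kept cell (points, 11 per protocol, sorted by value) with the median as a line, on linear axes that differ between panels. P4HB ranges of the 3 protocols do not overlap, DNAJC3 is at 374 to 1345 CPM in NEB and at most 135 CPM elsewhere, and the G&T cells E2 and H1, marked in 3 panels, lie lowest for ATF4 and highest for SEC62 and SEC61G within G&T.

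Within G&T, the cells E2 and H1 stood apart in several of these genes, which was noticed after their values were seen. ATF4 was at 32.4 CPM in E2 and 83.0 CPM in H1, and at 298 to 514 CPM in the other 9 G&T cells. TRIB3 was at 6.28 CPM in E2 and 4.15 CPM in H1, and B1 was also low at 6.96 CPM, while the other 8 held 55.7 to 300.3 CPM. SEC62 was at 796 and 978 CPM in E2 and H1 and at 201 to 469.7 CPM in the others, and SEC61G at 627 and 579 CPM and at 97.2 to 308 CPM.

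Of 10 partner genes of the same stress response outside the list, E2 and H1 were the lowest G&T cells in 4, namely PSAT1, PHGDH, SESN2 and EIF2S1. They were so in 14.4% of all genes with at least 100 pooled G&T reads, a limit not applied to the 10. For EIF2S1, E2 at 178.9 CPM lay close to E1 at 179.7 CPM. PSAT1 and PHGDH, enzymes of serine synthesis that ATF4 is known to raise, were at 5.23 and 32.4 CPM in E2 and at 0 in H1. SESN2, a stress-induced regulator of growth signalling, was at 2.09 CPM in E2 and 6.22 CPM in H1, where the median of the 11 cells was 53.1 CPM. SLC3A2, an amino acid transporter subunit also raised by ATF4, was lowest in E2 at 20.9 CPM, while H1 at 225 CPM lay above C1 at 176 CPM. CEBPB, another partner, was instead highest in H1 at 59.1 CPM.

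Being lowest was common for these cells. Both were the lowest G&T cells in 1182 of the 8235 genes with at least 100 pooled G&T reads (14.4%) and in 10 of the 39 ER genes (25.6%), among them ATF4, TRIB3, P4HB, SEC61A1 and HERPUD1. Both were the highest in 4.57% of those genes and in SEC62 and SEC61G. The limit of 100 reads was not applied to the 39 genes. ERN1, EIF2AK3 and PPP1R15A lack these reads and are among neither the lowest nor the highest. E2 and H1 also had the fewest detected genes of the kept G&T cells (10074 and 9541), the lowest shares of reads outside annotated genes (7.25% and 5.46%) and the highest shares of ERCC spike-in reads (2.75% and 2.49%). The part of these measures in the low ATF4 levels was not tested. No Takara cell had ATF4 below 78.1 CPM or SEC62 above 384 CPM.

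Whether chaperones and stress effectors vary together from cell to cell was described by Spearman correlation within each protocol, over 11 cells that share their protocol. The summed luminal chaperones (13 genes) had coefficients of variation over cells of 16.5%, 9.78% and 18.1% (G&T, Takara, NEB). The summed effectors (6 genes) had 53.3%, 32.5% and 78.9%. The effector sum thus had the larger coefficient in each protocol, but it holds fewer genes at lower levels. Its means were 628, 499 and 185 CPM, against 3801, 5486 and 5023 CPM for the chaperones. In G&T its lowest values were those of E2 and H1 (59.6 and 142 CPM). The sets were not compared at equal level, so the coefficients do not rank them by variability. The correlation between both sums was -0.25 over G&T cells, -0.24 over Takara cells and 0.10 over NEB cells. With reads scaled to ERCC spike-in reads it was 0.58 in G&T and 0.72 in Takara, but this scaling gives both sums of a cell the same factor, so nothing is read from that sign. HSPA5 and HSP90B1 were correlated at 0.37 with G&T, 0.44 with Takara and -0.58 with NEB.

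The genes high and low in NEB differed in base composition, which was looked at after the ratios were seen. The GC content of the canonical transcript in GENCODE 44 ran from 36.5% (SEC62) to 65.1% (SDF2L1) over the 39 genes, with a median of 46.1%. Below 42% GC, the 12 genes had a median log2 ratio of Takara over NEB of -1.18, and 2 of them were above 0. At 55% or more, the 9 genes had a median of 3.02, and all 9 were above 0. The 11 genes between 42 and 50% had a median of 0.39 and the 7 between 50 and 55% of 2.20.

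Over the 39 genes, the Spearman correlation of GC content with the log2 ratio of Takara over NEB was 0.73. With the ratio of G&T over NEB it was 0.71, and with that of G&T over Takara -0.07. All genes with the reads and an annotated transcript had 0.67 (n = 9015), 0.64 (n = 8835) and -0.19 (n = 9171), so genes at large showed a like relation. With the GC content of the coding part alone, the correlations over the 39 genes were 0.61 for Takara over NEB and 0.62 for G&T over NEB. Transcript length had correlations of -0.50 and -0.45 over the 39 genes, and of -0.28 and -0.11 over all genes, for Takara over NEB and G&T over NEB. Genes are not independent replicates, and the parts of composition, length and abundance were not tested. The mean transcript GC content of the reads of a cell was 47.4 to 48.2% in G&T, 48.6 to 49.7% in Takara and 42.8 to 44.4% in NEB.

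**Figure D4:**
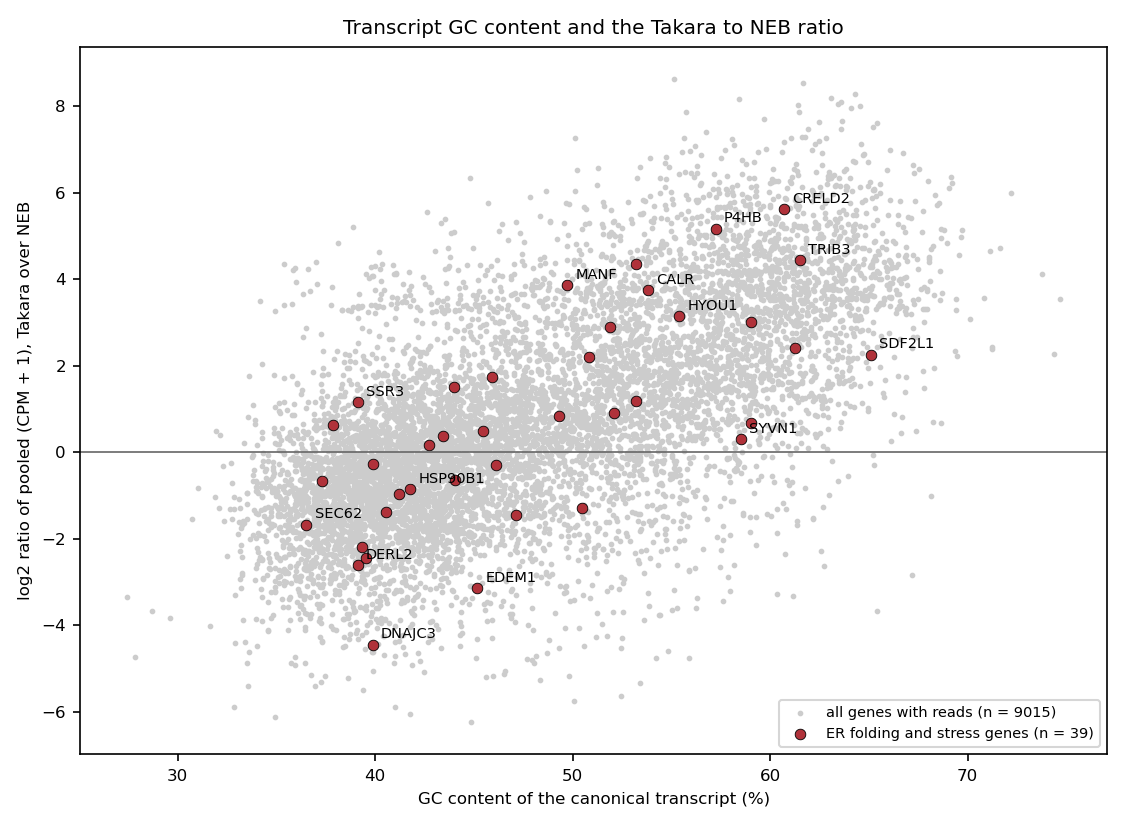
GC content of the canonical transcript (x axis, %) and pooled log2 ratio of CPM + 1 for Takara over NEB (y axis), for 9015 genes with reads (grey) and the 39 ER genes (red, 14 named). CRELD2, P4HB and TRIB3 lie at upper right, DNAJC3, DERL2 and SEC62 at lower left, and the red points follow the grey cloud with a Spearman correlation of 0.73 beside 0.67.

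Coding sequence of the genes at both ends shows the difference and a case that departs from it. The middle 120 bases of the longest coding stretch within 1 exon are given for the genes with the largest ratios, 2 higher in Takara and 2 in NEB, from GRCh38, with G and C in capitals.
CRELD2, chr22:49921613-49921732, plus strand: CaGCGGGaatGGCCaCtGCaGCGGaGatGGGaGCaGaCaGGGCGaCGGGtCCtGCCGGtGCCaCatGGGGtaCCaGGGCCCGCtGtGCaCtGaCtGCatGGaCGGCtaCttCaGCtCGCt
P4HB, chr17:81859225-81859344, minus strand: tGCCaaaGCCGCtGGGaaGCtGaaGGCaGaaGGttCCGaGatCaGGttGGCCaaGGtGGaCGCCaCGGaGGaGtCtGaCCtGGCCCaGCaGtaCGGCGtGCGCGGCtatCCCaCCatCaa
DNAJC3, chr13:95760071-95760190, plus strand: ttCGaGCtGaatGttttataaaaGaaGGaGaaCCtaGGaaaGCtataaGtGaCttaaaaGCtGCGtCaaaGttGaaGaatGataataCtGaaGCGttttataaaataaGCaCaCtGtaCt
EDEM1, chr3:5188000-5188119, plus strand: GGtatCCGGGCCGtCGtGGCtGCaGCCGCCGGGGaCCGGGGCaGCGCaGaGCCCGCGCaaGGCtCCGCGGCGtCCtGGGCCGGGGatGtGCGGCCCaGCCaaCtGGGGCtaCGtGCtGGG

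Of these 120 bases, 80 are G or C in CRELD2, 75 in P4HB and 40 in DNAJC3. EDEM1, although 9.44-fold higher in NEB than in Takara, has 93, in an exon far richer in GC than its whole transcript of 6113 bases (45.1% GC). SDF2L1, the richest in GC of all, was lower in NEB by less than CRELD2 was. SSR3 and SEC61G were poor in GC (39.1% and 37.9%) and yet higher in Takara than in NEB, at log2 ratios of 1.17 and 0.63.

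A further 51 genes of the same pathway, covering glycosylation, signal peptide processing, targeting and further degradation and stress genes, were counted in the same way. With G&T over Takara, 46 had 100 reads in 1 of both protocols, and 3 were at least 2-fold higher in G&T and 9 in Takara. With G&T over NEB, 17 of 45 were higher in G&T and 7 in NEB, and with Takara over NEB, 21 of 45 in Takara and 6 in NEB. The shares of all genes given above are the background of these counts too. EDEM2 and EDEM3, relatives of EDEM1, went opposite ways. EDEM2 had reads in all 11 Takara cells (89.8 CPM pooled) and all 11 G&T cells (48.1 CPM) and 1 read in NEB, a ratio of Takara over NEB of 716 with a counting interval of 128 to 28304. EDEM3 was at 314 CPM in NEB, 79.1 CPM in G&T and 20.8 CPM in Takara.

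ERO1A, the oxidase that recharges disulfide isomerases, was at 180.3 to 551 CPM in NEB cells, above every cell of G&T (0 to 54.0 CPM) and Takara (34.2 to 126 CPM). The isomerase P4HB that it oxidises was lowest in NEB. MOGS, the first glucosidase of glycan trimming, was at 46.6 to 163 CPM in Takara cells, 0 to 41.6 CPM in G&T cells and present in 2 NEB cells.

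XBP1, the transcription factor that IRE1 activates by splicing, was listed at 0 in all 40 deposited cells. It is known for high expression in oestrogen receptor-positive breast cancer, and no other gene overlaps it in GENCODE 44 (chromosome 22, 28794555 to 28800597). The isomerase TXNDC5 had 5 reads in all 40 cells. Its annotation overlaps that of a read-through gene. Whether these reads were lost in counting was not tested, and a value of 0 for XBP1 in every table is not read as absence here.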

How the data were processed

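Reads of 40 single T47D cells were trimmed by the authors with Trim Galore in 2 rounds, checked with FastQC and aligned with STAR to GRCh38. The deposited values are the raw read counts per gene from STAR, merged into 1 table per protocol, with no normalization and no molecular identifiers. The annotation release and the strand setting are not given in the sources used here. Beside 60279 genes, a table lists 92 ERCC spike-ins and 4 classes of unassigned reads, which took 26.0% of the reads of the kept cells and were left out.

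The study's quality limits were applied, namely at least 1000 genes, at least 600000 reads on genes and spike-ins, and at most 30% mitochondrial and 25% ERCC reads, which left 33 of 40. CPM was taken over reads on genes, and rankings per kilobase use the mean over the 3 protocols. Reads of the kept cells were pooled per protocol, with 1 CPM added for ratios, and intervals are exact Poisson or, for ratios, exact binomial at 95%. Gene models came from GENCODE 44. The genes and lists were chosen with earlier results of these data known. Values per cell are given for the genes with the 3 largest pooled ratios per pair and direction, the highest of each role per kilobase, the 4 with the largest ratio of highest to median cell, the sensors and single genes named after their values were seen. TMM factors came from edgeR 4.0.16 in R 4.3.3. The remaining steps ran in Python 3.11.15 (matplotlib 3.10.9, scipy 1.17.1, pandas 2.3.3, numpy 2.4.6). The code for the ratios was run on simulated reads with planted changes. These reads had no clumping within cells, so that run checks the calculation and not the ratios reported here. Alternatives changed detection, depth, scaling, pseudocount, minimum reads, pooling and the cells used.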

Additional observations from a re-analysis of the deposited data

Results flagged for a closer look

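Reads on the ER genes were also present in the 7 cells left out by quality, which entered only the alternative over all deposited cells. In G&T, C2 held 5463 reads on 36 of the 39 genes and F1 4072 reads on 32. In NEB, B2 held 3978 reads on 18 and F2 3964 reads on 28. These 4 cells had summed levels of 6979 to 8827 CPM. The near-empty Takara cells C2 and F1 held 13 and 11 reads on 9 and 3 genes, and the NEB cell F1 12 reads on 6, where ERCC spike-ins took 91.3% to 99.7% of the library. Each count is above the 3 reads that a count of 0 allows. The groups have 11 cells each, so single cells were not screened as outliers.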

How the results depend on the processing

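Of 454 recomputed values of 24 results, 440 stayed within a set limit and 14 moved. The limit was the spread between cells, or 1.5 times for counts, while correlations had a limit of their own. Most of these values, 363, came from leaving out 1 cell, and 4 of them moved. A single cell shifts a mean over cells only a little, so the 440 are not read as a measure of stability. Counting detection from 5 reads gave 35.3 genes per G&T cell, and all deposited cells gave 32.1 per Takara cell. Without mitochondrial genes the summed level was 8982 CPM in G&T, 9506 CPM in Takara and 10372 CPM in NEB, where it stayed within the limit. Over all deposited cells it was 7404 CPM in Takara. Leaving out 1 cell, the genes at least 2-fold higher in Takara than in G&T ranged from 4 to 7, with 7 without the G&T cell E1. For the correlation of chaperones with effectors, Pearson's r on log2(CPM + 1) was 0.40 in G&T, scaling to spike-ins, which gives both sums of a cell a shared factor and is not read further, gave 0.58 in G&T and 0.72 in Takara, and leaving out the G&T cells E2 and H1, chosen after seeing the data, gave -0.67. Leaving out 1 cell it ranged from -0.67 (without E2) to -0.13 in G&T and from -0.091 (without C2) to 0.43 (without A2) in NEB. For HSPA5 and HSP90B1 in NEB, the same scaling gave 0.20, and leaving out 1 cell gave -0.79 (without D2) to -0.47. The cause was not tested. The median log2 ratio of G&T over Takara ranged from -0.0035 to 0.25 when 1 cell was left out, so its sign rests on single cells. TMM scaling shifted the median log2 ratio of all genes by -0.06, -0.10 and -0.04 in the 3 pairs, and no count past 2-fold moved by over 1.5 times. No paired analysis was possible because wells share only a position between plates and no test was made. With 1 sample per protocol, a protocol cannot be told apart from its plate or sequencing run, and the counting intervals hold no spread between cells or cultures.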
